A study of Mus musculus with 6 samples.

Results

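Sestrins, REDD1 and its relative and the GATOR1 complex are proteins that restrain mTORC1, and the 4E-BPs act below it as its substrates. The RNA of the 10 genes of these proteins was followed in cultures treated with metformin. These genes are Sesn1, Sesn2, Sesn3, Ddit4, Ddit4l, Eif4ebp1, Eif4ebp2, Depdc5, Nprl2 and Nprl3. They were chosen by name, and partly because Sesn2, Ddit4 and Eif4ebp1 had been seen to be higher with metformin in these same libraries. All 10 were found by their Ensembl identifiers among the 55401 genes of the deposited table. The RNA-seq data consist of 3 control libraries, labelled as untreated, and 3 libraries from cells given 1 μM metformin for 24 h. Both groups came from C57BL/6 cells that the labels call female germline stem cells (FGSCs), a long-passaged line grown on STO fibroblast feeder cells with LIF, EGF, bFGF and GDNF. The question of the comparison is which transcripts differ after metformin. No label says that the replicates were separate cultures, so p-values measure only the spread between these libraries, which may be technical.

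mTORC1 is a kinase complex on the lysosome that drives protein synthesis and growth when amino acids, growth factors and energy are plentiful. Amino acids act on it through the Rag GTPases, which GATOR1 switches off and GATOR2 protects from GATOR1, while growth factors and energy act through the TSC complex and the GTPase Rheb. Sestrins bind GATOR2 and thereby free GATOR1, REDD1 acts through TSC, and the 4E-BPs are substrates of mTORC1 that hold the cap-binding protein eIF4E when they are not phosphorylated. The drug metformin is known to lower mitochondrial respiration and to act on AMPK and mTORC1 in many cells. The data here are RNA levels, and neither mTORC1 activity nor the phosphorylation of these proteins was measured in them.

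Expression is given in the deposited unit FPKM, which scales the fragments of a gene to transcript length and to library depth. The step that 1 fragment makes in short genes put the depth at 13400000 to 14100000 fragments per library, and the groups overlapped in depth. Markers were checked against the label. Of 6 germ cell markers, 0 had a mean of 1 FPKM or more over the 6 libraries, although Ifitm3, with 0.32 to 1.32 FPKM, passed that level in a control library, and Dazl, Dppa3 and Pou5f1 were listed at 0 in all 6 libraries. All 6 markers of blood cells had higher means, with a summed level of 436 to 441 FPKM in the control group and 433 to 450 FPKM with metformin. The 6 mast cell markers summed to 474 to 505 FPKM in the control group and 450 to 465 FPKM with metformin, nearly all of it Cpa3 and Kit, while Fcer1a and Tpsb2 were listed at 0. The 6 markers of fibroblasts were at or near 0, with a sum of at most 0.34 FPKM in any library. The cells are called here by their label, other assays of the line were not analysed here, and the part of these marker differences in the results below was not tested. In bulk RNA, fewer cells with a transcript and less of it per cell cannot be told apart.

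The sequences just upstream of the RefSeq start are shown for 4 of the genes. Sesn2, Ddit4 and Eif4ebp2 lay above the control libraries in every metformin library, and the sestrin Sesn3 lay below, hence this choice. Promoter sequences of 9 of the 10 genes were in the RefSeq set for GRCm38.p6, and Eif4ebp1 was not among them. Each window holds the 250 bases before the RefSeq start, read 5′ to 3′ along the gene, at chr4:132510457-132510706 on the minus strand for Sesn2, chr10:59951771-59952020 on the minus strand for Ddit4, chr10:61452670-61452919 on the minus strand for Eif4ebp2 and chr9:14276051-14276300 on the plus strand for Sesn3. The RefSeq starts differ from the ends of the genes as measured, whose positions are given below. By those positions the Sesn3 window lies wholly inside the gene. The Sesn2 and Ddit4 windows reach into their genes, and the Eif4ebp2 window lies outside its gene. Capitals mark the letters CCAAT or ACGTG on either strand.
Sesn2: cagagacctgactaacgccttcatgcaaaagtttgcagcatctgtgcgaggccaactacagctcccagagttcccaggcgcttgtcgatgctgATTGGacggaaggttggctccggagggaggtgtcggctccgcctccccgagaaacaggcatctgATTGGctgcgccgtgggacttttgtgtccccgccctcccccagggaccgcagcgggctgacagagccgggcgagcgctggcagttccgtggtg
Ddit4: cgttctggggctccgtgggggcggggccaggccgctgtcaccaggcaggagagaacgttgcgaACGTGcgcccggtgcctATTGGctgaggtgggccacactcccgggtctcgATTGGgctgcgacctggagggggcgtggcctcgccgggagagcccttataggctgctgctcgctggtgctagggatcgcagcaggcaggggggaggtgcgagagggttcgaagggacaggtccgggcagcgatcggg
Eif4ebp2: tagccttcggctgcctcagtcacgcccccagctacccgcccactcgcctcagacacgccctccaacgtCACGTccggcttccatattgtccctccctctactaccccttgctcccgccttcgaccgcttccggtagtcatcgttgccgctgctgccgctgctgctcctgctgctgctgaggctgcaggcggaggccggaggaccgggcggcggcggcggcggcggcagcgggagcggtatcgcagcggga
Sesn3: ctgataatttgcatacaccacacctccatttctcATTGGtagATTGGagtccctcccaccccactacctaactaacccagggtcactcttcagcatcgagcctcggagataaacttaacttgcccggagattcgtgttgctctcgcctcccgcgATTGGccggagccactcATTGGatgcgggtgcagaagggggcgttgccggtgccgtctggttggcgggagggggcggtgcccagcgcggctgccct

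Both strands of these windows were searched for TGATGNAA, the letters of the C/EBP-ATF response element that ATF4 binds, for TGTTTAC of forkhead factors, for ACGTG of the hypoxia response element and for CACGTG of E-boxes, which contains ACGTG. The letters of the NF-Y box (CCAAT) were added after the sequences had been read. None of the 9 genes had TGATGNAA, TGTTTAC or CACGTG in these windows, and 3.91%, 3.54% and 6.86% of all 27025 genes with a promoter did. ACGTG was found in Ddit4, starting 187 bases upstream of the start, and in Eif4ebp2, starting 182 bases upstream, and in 18.5% of all genes. CCAAT was found 2 times in Sesn2, at 157 and 93 bases upstream, 2 times in Ddit4, at 170 and 137 bases, and 4 times in Sesn3, at 216, 208, 96 and 79 bases, and 37.5% of all genes had it. Sesn1, which has 2 listed starts, had CCAAT 1 time before each of them. These matches describe letters in a short window and show no binding.

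The levels of the 10 genes spanned a wide range, from Eif4ebp2 with a mean of 40.9 FPKM over the 6 libraries to Ddit4l, which was listed at 0 in every library. Eif4ebp2, Eif4ebp1 (37.9 FPKM) and Ddit4 (30.4 FPKM) were the highest, at the 86.4th, 85.3rd and 81.4th percentiles of the 10661 genes whose mean reached 1 FPKM, the genes that were tested. Sesn2 had 15.0 FPKM, at the 64.5th percentile, and Nprl2 had 9.44 FPKM, at the 50.3rd. Depdc5 (5.47 FPKM), Sesn1 (4.25 FPKM), Nprl3 (2.31 FPKM) and Sesn3 (1.34 FPKM) were lower, and Sesn3 stood at the 4.65th percentile. The ranges over the 6 libraries overlapped for 1 pair of neighbours in this order, Eif4ebp2 and Eif4ebp1, although Eif4ebp2 was the higher of the pair within 6 of 6 libraries. Eif4ebp1 and Ddit4 were barely apart, with a lowest value of 35.01 FPKM for Eif4ebp1 and a highest of 34.95 FPKM for Ddit4, and the other neighbours had wider gaps. Levels of different genes can be compared because FPKM is per length, but the gene lengths that the authors used are not given in the sources used here.

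**Figure D1:**
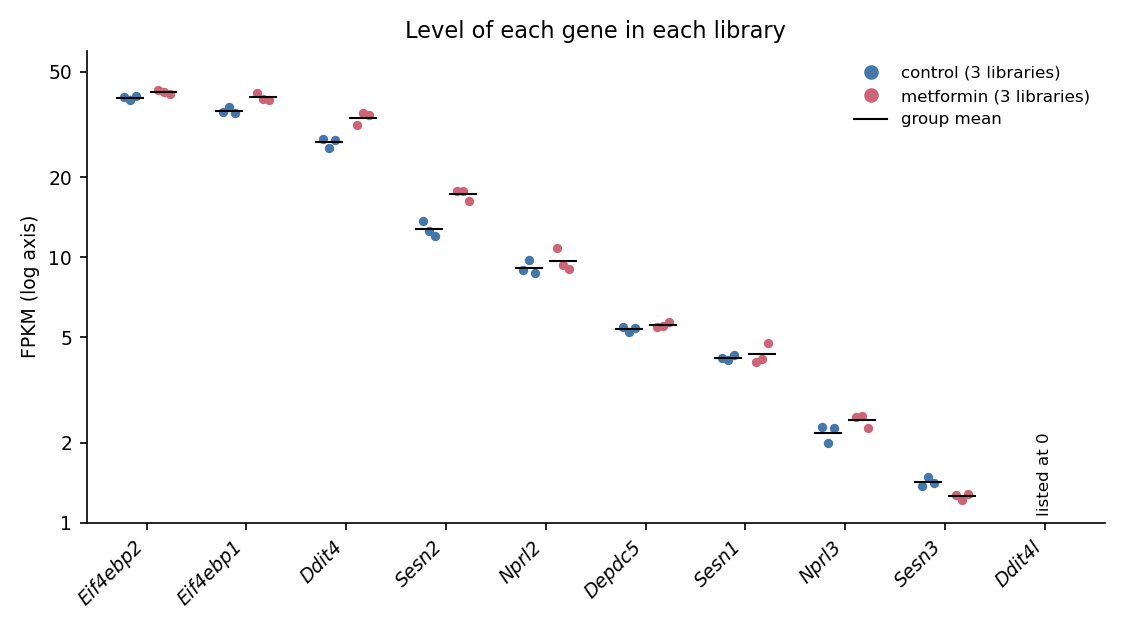
FPKM of each of the 10 genes on a log axis, with 1 point for each of the 3 control (blue) and 3 metformin (red) libraries and a line for the group mean. Points of the groups do not overlap for Eif4ebp2, Eif4ebp1, Ddit4 and Sesn2, where metformin is higher, and for Sesn3, where it is lower. Ddit4l is listed at 0 in all 6 libraries.

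Among the sestrins, which sense stress, Sesn2, whose protein binds leucine, was the main transcript. Sesn2 (ENSMUSG00000028893) is a minus-strand gene on chromosome 4 (132492032 to 132510501, GRCm38, as are all gene positions given here). It had 13.72, 12.55 and 11.98 FPKM in control replicates 1 to 3 and 17.80, 17.73 and 16.26 FPKM in metformin replicates 1 to 3. No metformin library fell within the control range, all 3 being higher, and the gap between the groups was wider than the range within either. The group means were 12.8 ± 0.887 FPKM and 17.3 ± 0.870 FPKM (SD, n = 3 each), a ratio of 1.35 and a difference of 0.41 on the log2(FPKM + 1) scale (standard error 0.06). Of the 10661 genes tested, 99.2% had a smaller value of this signed difference. The gene span of Sesn2 is as long in GENCODE M1, whose exon length gives about 583 to 872 fragments per library and a counting error of 3.72%. The CV between replicates was 6.96% in the control group and 5.04% with metformin.

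Sesn1 (ENSMUSG00000038332), a target of p53 and FOXO factors, is a plus-strand gene on chromosome 10 (41809935 to 41908424). It had 4.16, 4.11 and 4.27 FPKM in the control libraries and 4.03, 4.13 and 4.77 FPKM with metformin. The groups overlapped, and metformin replicate 3 alone was above the control range while replicate 1 was below it. The difference was 0.03 on the log2(FPKM + 1) scale (standard error 0.06), and without metformin replicate 3 it was -0.03. The CV of 9.32% in the metformin group was over 4 times the 1.96% of the control group.

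Sesn3 (ENSMUSG00000032009), a FOXO target in other cells, is a plus-strand gene on chromosome 9 (14275067 to 14333101). Its control values were 1.38, 1.49 and 1.41 FPKM and its metformin values 1.27, 1.22 and 1.28 FPKM. All metformin libraries were thus below all control libraries, the opposite side from Sesn2. The means of 1.43 ± 0.0569 and 1.26 ± 0.0321 FPKM (SD, n = 3 each) gave a difference of -0.10 on the log2(FPKM + 1) scale (standard error 0.07). The pseudocount understates differences of low genes, and for Sesn3 the difference was -0.17 with a pseudocount of 0.1. The SE comes from a spread moderated toward genes of like level, whose median SD was 0.12 on the log2 scale, whereas the libraries of Sesn3 themselves had an SD of 0.03.

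Summed over the 3 sestrins, expression was 19.26, 18.15 and 17.66 FPKM in the control libraries and 23.10, 23.08 and 22.31 FPKM with metformin. The Sesn2 share of this sum was 71.2%, 69.1% and 67.8% in the control libraries and 77.1%, 76.8% and 72.9% with metformin, without overlap. The share of Sesn3 was 7.79 ± 0.550% and 5.51 ± 0.226%, and that of Sesn1 was 22.8 ± 1.30% and 18.9 ± 2.15% (SD, n = 3 each). The larger sum with metformin was thus made up of Sesn2, with a mean 4.51 FPKM higher, while Sesn1 was 0.13 FPKM higher and Sesn3 lower by 0.17 FPKM.

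**Figure D2:**
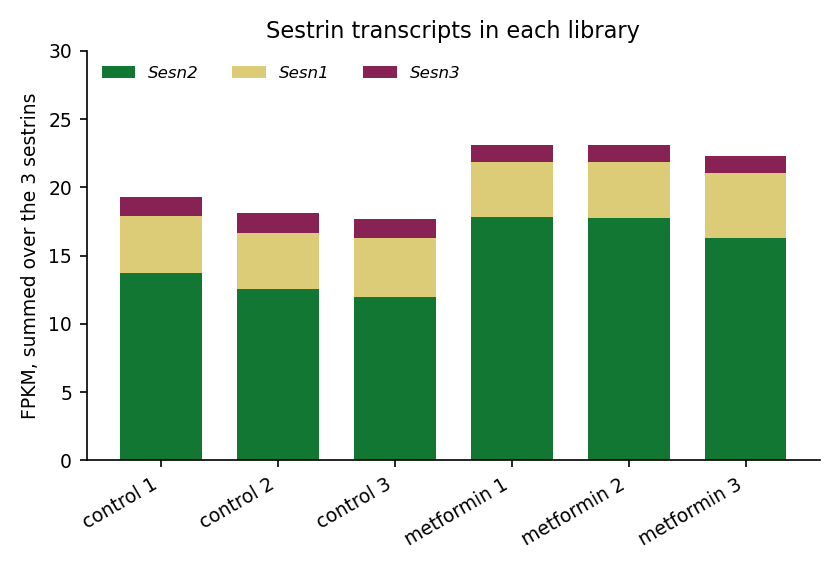
FPKM of the 3 sestrin genes stacked for each library (Sesn2 green, Sesn1 yellow, Sesn3 purple), with the bars starting at 0. The 3 metformin bars reach 22.31 to 23.10 FPKM and the 3 control bars 17.66 to 19.26 FPKM, and the green part is the one that is larger with metformin.

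Of the REDD pair, Ddit4 was expressed and Ddit4l was not detected. Ddit4 (ENSMUSG00000020108), which encodes REDD1, a short-lived protein made under hypoxia, energy stress and glucocorticoids, is a minus-strand gene on chromosome 10 (59949669 to 59951834). Its values were 27.97, 25.73 and 27.75 FPKM in the control libraries and 31.50, 34.95 and 34.22 FPKM with metformin. Metformin replicate 1 was the lowest of its group and still above all control libraries. The means were 27.2 ± 1.23 and 33.6 ± 1.82 FPKM (SD, n = 3 each), a ratio of 1.24 and a difference of 0.30 on the log2(FPKM + 1) scale (standard error 0.05). Of all tested genes, 98.6% had a smaller signed difference. Ddit4l (ENSMUSG00000046818), which encodes REDD2, is a plus-strand gene on chromosome 3 (137621612 to 137628333) and was listed at 0 FPKM in all 6 libraries. A count of 0 allows 3 fragments, which by the exon length of GENCODE M1 would be at most 0.0768 FPKM in any library at this depth. This limit covers counting error only.

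Both 4E-BPs were among the higher genes and both were higher with metformin in every library, Eif4ebp1 by more. Eif4ebp1 (ENSMUSG00000031490), a plus-strand gene on chromosome 8 (27260329 to 27276674), had 35.23, 36.90 and 35.01 FPKM in the control libraries and 41.50, 39.63 and 39.26 FPKM with metformin. Its means of 35.7 ± 1.03 and 40.1 ± 1.2 FPKM (SD, n = 3 each) had a ratio of 1.12 and a difference of 0.16 on the log2(FPKM + 1) scale (standard error 0.03). Its coding sequence of 354 bp has 1 near-complete match elsewhere on NCBIM37 with 93.3% identity, so part of its fragments may have been shared with that copy, depending on how the authors treated reads with several matches. Eif4ebp2 (ENSMUSG00000020091), a minus-strand gene on chromosome 10 (61428491 to 61452661), had 40.03, 39.17 and 40.69 FPKM in the control libraries and 42.52, 41.82 and 41.37 FPKM with metformin. The groups of Eif4ebp2 were separated by a gap smaller than the range within either group. Its difference was 0.07 on the log2(FPKM + 1) scale (standard error 0.03), with a ratio of means of 1.05. The ratio of Eif4ebp1 to Eif4ebp2 was 0.880, 0.942 and 0.860 in the control libraries and 0.976, 0.948 and 0.949 with metformin, so Eif4ebp1 came closer to Eif4ebp2 without reaching it in any library. The third gene of the family, Eif4ebp3, had 0.10 to 0.30 FPKM in the control libraries and 0.19 to 0.49 FPKM with metformin, under the level at which genes were tested.

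The 3 subunits of GATOR1 overlapped between the groups. GATOR1 turns off RagA and RagB, with Nprl2 as its catalytic subunit, Nprl3 as its partner and Depdc5 as the subunit that touches the Rag proteins. Nprl2 (ENSMUSG00000010057), a plus-strand gene on chromosome 9 (107542226 to 107545706), had 8.93, 9.76 and 8.74 FPKM in the control libraries and 10.83, 9.35 and 9.0 FPKM with metformin. Its difference of 0.08 on the log2(FPKM + 1) scale (standard error 0.07) rested on metformin replicate 1 and was 0.0056 without it, and without control replicate 2 its groups were apart. Depdc5 (ENSMUSG00000037426), a plus-strand gene on chromosome 5 (32863701 to 32994236), had 5.48, 5.23 and 5.43 FPKM in the control libraries and 5.45, 5.50 and 5.70 FPKM with metformin, a difference of 0.04 (standard error 0.04) on the same scale. Without control replicate 2 or metformin replicate 3 the difference of Depdc5 was 0.02, and without control replicate 1 or metformin replicate 1 its metformin values were all above. Nprl3 (ENSMUSG00000020289), a minus-strand gene on chromosome 11 (32225628 to 32267707), had 2.30, 1.99 and 2.27 FPKM in the control libraries and 2.51, 2.53 and 2.28 FPKM with metformin. Its lowest metformin value lay just inside the control range, and its difference was 0.11 (standard error 0.07) on the log2(FPKM + 1) scale. That difference was 0.07 without control replicate 2, and the groups of Nprl3 were apart without control replicate 1 or metformin replicate 3. By the exon length of GENCODE M1, about 208 to 268 fragments per library fell on Nprl3. The counting error was 6.42%, beside CVs of 7.82% in the control group and 5.69% with metformin.

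Nprl2 made up 54.7 ± 2.42% of the summed FPKM of GATOR1 in the control group and 54.8 ± 2.48% with metformin (SD, n = 3 each). Depdc5 made up 32.2 ± 1.22% and 31.4 ± 2.29%, and Nprl3 made up 13.1 ± 1.19% and 13.8 ± 0.673%, and each share overlapped between the groups. In each library Nprl2 was the highest and Nprl3 the lowest of the subunits. Nprl3 overlaps Mpg, a DNA repair gene that runs the other way and had a mean of 4.38 FPKM, along 6196 bp. Whether fragments there were told apart by strand is not given in the sources used here. The other listed genes that overlap any of the 10 genes had means of at most 0.523 FPKM.

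The spread between replicates differed among the genes. On the log2(FPKM + 1) scale the SD within groups was 0.11 for Nprl2, 0.08 for Sesn2 and 0.07 for Ddit4, beside medians of 0.06, 0.05 and 0.04 for tested genes of like level. Depdc5, with 0.03 beside 0.07, Eif4ebp2, with 0.02 beside 0.04, and Sesn3, with 0.03 beside 0.12, varied less than such genes. Eif4ebp1, Sesn1 and Nprl3 had SDs close to or under the median of genes of like level.

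Of the 10 genes, 9 reached a mean of 1 FPKM and were among the 10661 genes fitted together with limma. With metformin, 4 of these 9 lay above all control libraries (Sesn2, Ddit4, Eif4ebp1 and Eif4ebp2), where 8.89% of all tested genes did. Sesn3 alone of the 9 lay below, where 8.1% of all tested genes did. At an adjusted p under 0.05 (limma, Benjamini-Hochberg over all tested genes) 0 of the 9 were called, beside 0.0281% of all tested genes higher and 0% lower. At an unadjusted p under 0.05, 4 of the 9 were higher, beside 6.03% of all tested genes, and 0 were lower, beside 4.81%. Eif4ebp2 was no longer among these 4 under quantile normalization, without the trend in the moderation, with the replicate block, or without replicate 1 or 2 of either group. Sesn3 counted as lower without the trend. Over all tested genes the split of 643 higher and 513 lower became 569 and 584 after rescaling to the same sum, and 559 and 579 after quantile normalization. Since the genes were chosen partly for this difference, these counts describe the choice and carry no test of it. The median difference of the 9 genes was 0.08 on the log2(FPKM + 1) scale, and that of all tested genes was 0.0041.

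**Figure D3:**
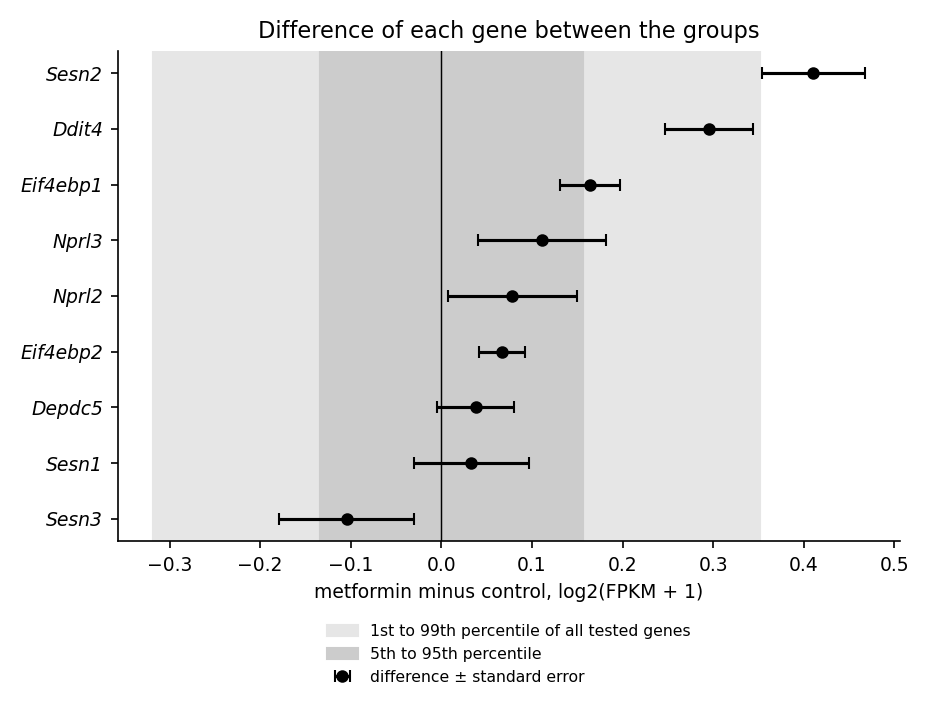
Difference between metformin and control for the 9 tested genes, on the log2(FPKM + 1) scale, with bars for the standard error from limma and grey bands for the percentiles of all 10661 tested genes. Sesn2 (0.41) lies beyond the 99th percentile, Ddit4 (0.30) and Eif4ebp1 (0.16) between the 95th and the 99th, and the other 6 genes between the 5th and the 95th.

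The other genes of the mTORC1 pathway were counted from 6 lists with 51 genes, of which 50 were matched (all but Kics2) and 47 tested. The list of mTOR complexes also holds the mTORC2 subunits Rictor, Mapkap1, Prr5 and Prr5l, so the counts are not of mTORC1 alone. At an adjusted p under 0.05 (limma) 0 of the 47 were called in either direction, beside 0.0281% of all tested genes. At an unadjusted p under 0.05 there were 3 higher and 1 lower, beside 6.03% and 4.81% of all tested genes. The groups did not overlap for 8 of the 47 genes, or 17%, the same share as the 17% over all tested genes, with 3 above and 5 below. Their median difference was 0.0013 on the log2(FPKM + 1) scale, and the largest was 0.19, for Prr5. Prr5, a subunit of mTORC2, went from 7.94 ± 0.391 to 9.22 ± 0.764 FPKM (SD, n = 3 each, adjusted p = 0.377 from limma). Castor1, the arginine sensor that binds GATOR2, went from 29.7 to 31.3 FPKM on average (adjusted p = 0.425 from limma). Akt1s1, the mTORC1 inhibitor PRAS40, went from 15.6 to 16.6 FPKM (adjusted p = 0.455 from limma), and Rraga, the RagA GTPase on which GATOR1 acts, from 43.1 to 40.5 FPKM (adjusted p = 0.423 from limma).

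By complex, the sestrins' binding partner GATOR2 had 5 tested genes with differences from -0.04 to 0.06. Of these, 0 were above and 2 below, beside 8.89% and 8.1% of all tested genes. The 2 were Sec13 (adjusted p = 0.610 from limma) and Seh1l (adjusted p = 0.583 from limma). Both of these proteins also belong to the nuclear pore. The 3 tested genes of KICSTOR, which anchors GATOR1 to the lysosome, overlapped between the groups. Of the 5 genes for TSC and Rheb, through which REDD1 acts, 0 were above and 1 was below, beside the same 8.89% and 8.1%. The gene below was Rhebl1 (adjusted p = 0.527 from limma), and Tsc1, Tsc2 and Rheb overlapped. Of the 10 tested substrates and cap-binding factors, 1 did not overlap, beside 17% of all tested genes. It was Eif4e, the partner of the 4E-BPs, at 55.4 FPKM in the control group and 52.9 FPKM with metformin (difference -0.06, adjusted p = 0.475 from limma). Mtor itself was at 7.45 and 7.23 FPKM, with overlap. Pathway genes other than Prr5, Castor1, Akt1s1 and Rraga were picked for mention with their values known.

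**Figure D4:**
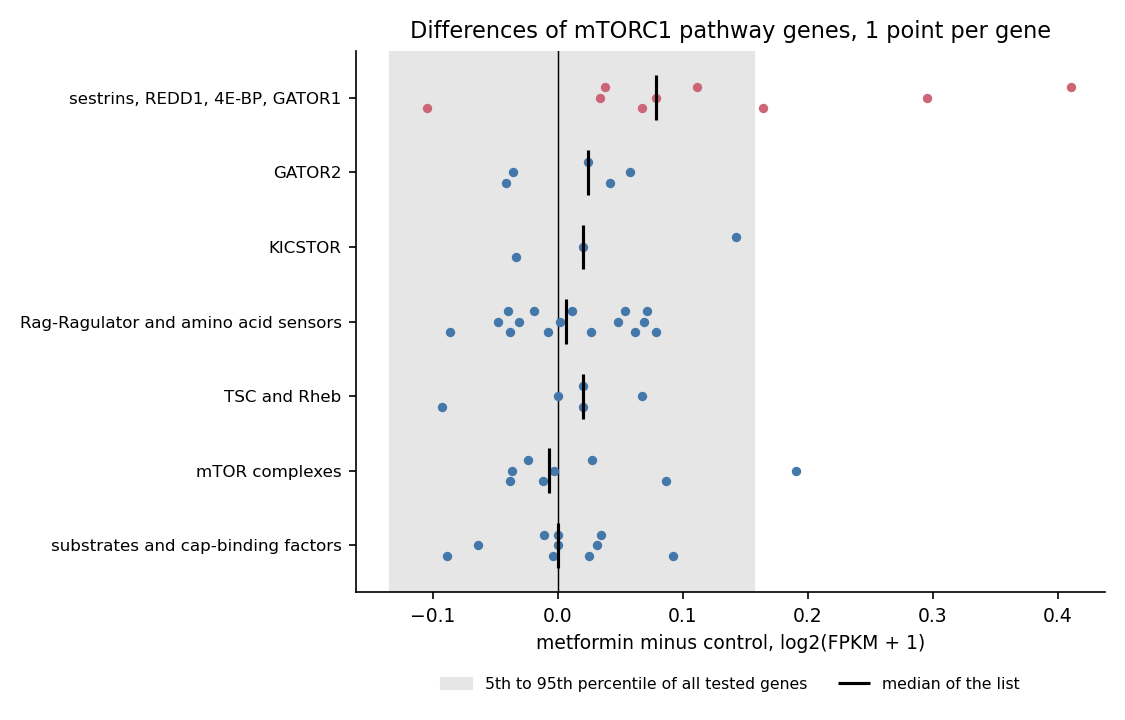
Difference between metformin and control on the log2(FPKM + 1) scale, 1 point per tested gene, for the sestrin, REDD1, 4E-BP and GATOR1 genes (red) and for 6 lists of other mTORC1 pathway genes (blue), with a line at each median. The other lists have medians from -0.0076 to 0.0243. Prr5 at 0.19, a subunit of mTORC2, is the only blue point beyond the 5th to 95th percentile of all tested genes, shaded grey.

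Several of the 10 genes are known targets of stress regulators. Lists for 5 of these regulators, chosen with results of these data known, were read in the same libraries. Only RNA was read, and the protein and activity of the regulators were not measured in these libraries. ATF4, the transcription factor of the integrated stress response, acts on Sesn2, Ddit4 and Eif4ebp1 in other cells. Atf4 RNA went from 204 to 231 FPKM (difference 0.18, standard error 0.03, adjusted p = 0.243 from limma). Of the 13 tested genes of its list, 11 lay above all control libraries, beside 8.89% of all tested genes. Called were 3 of the list, Trib3, Chac1 and Ddit3, the last of which is named for completing the count. These 3 are all the genes called among the 10661 tested, or 0.0281%. As the list was chosen with results of these data known, these counts carry no test of it. Trib3, a pseudokinase, rose from 6.56 ± 0.318 to 16.0 ± 0.334 FPKM, a difference of 1.17 (SD, n = 3 each, adjusted p = 0.000127 from limma), and Chac1, which degrades glutathione, rose from 2.52 ± 0.256 to 6.94 ± 0.348 FPKM, a difference of 1.18 (adjusted p = 0.00197 from limma). The differences on the same log2 scale were 0.41 for Sesn2, 0.30 for Ddit4 and 0.16 for Eif4ebp1.

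For hypoxia, which is known to raise Ddit4, Hif1a was at 25.6 FPKM in the control group and 24.4 FPKM with metformin, lower in every metformin library (difference -0.07, adjusted p = 0.467 from limma), and Epas1 was listed at 0 in 5 of the 6 libraries and at 0.01 FPKM in the other. Of the 8 tested genes on that list 4 were above and 1 below, beside 8.89% and 8.1% of all tested genes. Of these 8, 0 were called by limma, with 4 higher and 0 lower at an unadjusted p under 0.05, beside 6.03% and 4.81%. Ndrg1, a stress-induced gene, went from 3.70 to 4.60 FPKM (adjusted p = 0.301 from limma), and Egln3, an oxygen-sensing hydroxylase, from 19.8 to 21.8 FPKM (adjusted p = 0.369 from limma).

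For p53, which acts on Sesn1 and Sesn2, 2 of 9 tested genes were above and 2 below, beside 8.89% and 8.1% of all tested genes. Of these 9, 0 were called by limma, with 2 higher and 2 lower at an unadjusted p under 0.05, beside 6.03% and 4.81%. Trp53 itself was at 47.7 and 48.7 FPKM with overlap. Bbc3, the death gene PUMA, went from 11.2 to 12.9 FPKM (adjusted p = 0.346 from limma), and Ccng1, cyclin G1, from 73.5 to 67.7 FPKM (adjusted p = 0.346 from limma). For FOXO factors, which act on Sesn1 and Sesn3, 1 of 6 tested genes was above and 0 below, beside the same 8.89% and 8.1%, and 0 had an adjusted or unadjusted p under 0.05 in limma. The gene above was Ccng2, an atypical cyclin, at 4.87 and 5.13 FPKM (adjusted p = 0.678 from limma), while Foxo1, at 2.42 and 2.51 FPKM, and Foxo3, at 9.10 and 8.99 FPKM, overlapped.

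For the glucocorticoid receptor, another regulator of Ddit4, 2 of 6 tested genes were above and 0 below, beside 8.89% and 8.1% of all tested genes. Of these 6, 0 were called by limma, with 1 higher and 0 lower at an unadjusted p under 0.05, beside 6.03% and 4.81%. Tsc22d3, the protein GILZ, went from 8.10 to 9.88 FPKM (difference 0.26, adjusted p = 0.260 from limma), beside 0.30 for Ddit4. Per1, a clock gene, was at 8.34 and 8.75 FPKM (adjusted p = 0.602 from limma), and Nr3c1, which encodes the receptor, at 22.0 and 21.5 FPKM with overlap.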

How the data were processed

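RNA-seq of 3 control and 3 metformin libraries was analysed from 1 deposited table. The table, as the authors deposited it, holds an FPKM value per library for each of 55401 Ensembl genes, and 0 of its columns were left unused. HISAT2 and DESeq2 are named, with no version, in the submitters' processing notes, together with mm9, whereas gene positions in the table overlap those of GRCm38.p6 for 10 of the 10 genes. The library kit is a stranded one in the labels and another in the paper, and the counting step is not given in the sources used here.

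The 10 genes and all lists were chosen with earlier results of these data known. Named genes were the 10 genes, any called gene and up to 3 per direction of the pathway lists, the regulators, and 2 genes with the smallest p of each regulator list. Values were tested as log2(FPKM + 1) on the 10661 genes whose mean reached 1 FPKM, with limma 3.58.1 (R 4.3.3, lmFit, eBayes with trend, two-sided, Benjamini-Hochberg, threshold 0.05). Depth came from genes with 1 exon shorter than 400 bp, whose values were within 0.1 of whole fragments in 100% of cases. Fragments per gene were estimated where the gene span equals that of GENCODE M1. Copies of the coding sequences were sought on NCBIM37 with blastn 2.17.0, at 90% identity over at least 100 bp. The fit was tested on simulated data with normal noise of each gene's own SD. Of 200 genes given a log2 change, 24% were called at a change of 0.25, 86.5% at 0.5 and 96% at 1. False calls numbered 0 with no change and 5 to 9 with a change. The adjusted p depends on how many genes change, and 3 genes were called in the data. The shares called in the simulation may thus be too high for these data, and a gene that was not called may still differ. Python 3.11.15 and matplotlib 3.10.9 were used.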

Additional observations from a re-analysis of the deposited data

How the results depend on the processing

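The settings tried were 0.1 as the pseudocount, dropping the filter, raising it to 10 FPKM, rescaling to the same sum, quantile normalization, centring on the median, moderation without the trend, the replicate number as a block and each library left out in turn. The number of genes called between the groups was 3, and 7 with no filter, where 22809 genes were tested, 2 with the filter at 10 FPKM, while leaving out a library gave 3 to 4. The replicate block gave 2 calls. The numbers did not pair the libraries, since same-numbered libraries had correlations of -0.0317, 0.0181 and 0.0479 between their deviations from the group means. Of the 10 genes, 4 to 6 lay above the control group when a library was left out, and 4 under the scalings and filters. Other mTORC1 pathway genes without overlap numbered 8, 6 with the filter at 10 FPKM, and 10 to 12 when a library was left out. For both counts, fewer values have to be apart when a library is left out. A filter removes genes but cannot change whether the groups of a gene overlap. The share of all tested genes without overlap was not counted under these settings, so these counts have no background beside them. For the 9 genes, 112 values came from these alternatives other than moderation without the trend. Of these, 111 kept their sign, and the exception was Sesn1 without metformin replicate 3. The filters and the replicate block cannot change a difference, so their values kept the sign by construction. The range without 1 library was 0.37 to 0.46 for Sesn2, 0.26 to 0.34 for Ddit4, 0.14 to 0.19 for Eif4ebp1, 0.05 to 0.08 for Eif4ebp2, 0.07 to 0.14 for Nprl3, 0.02 to 0.05 for Depdc5, 0.0056 to 0.13 for Nprl2, -0.03 to 0.07 for Sesn1 and -0.12 to -0.09 for Sesn3, all on the log2 scale. Sesn3 was at -0.17 with the pseudocount of 0.1 and -0.15 after rescaling. Counting error was estimated for Sesn2 and Nprl3 alone, the detected genes of the 10 whose span is as long in GENCODE M1. The exon lengths behind the deposited values are not known for any gene, so these estimates rest on those of GENCODE M1.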
